A study of Homo sapiens with 2 samples.

Results

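The peaks described here were the positions that the mRNA list and the lncRNA list of PTBP1-bound RNA held in common while naming no gene in common. Of 10254 peak positions in all, 8479 were listed for mRNA and 2849 for lncRNA, and 1074 were listed for both. In 865 of those 1074 at least 1 gene symbol appeared on both sides, as for a gene with coding and noncoding transcripts. In the remaining 209 (19.5% of the shared positions) the mRNA list named a coding gene. The lncRNA list named a gene under another symbol there, mostly a neighbouring or overlapping noncoding gene. Readthrough transcripts and 1 protein-coding gene among these partners are described below. These 209 peaks carried 180 coding and 185 noncoding symbols on 23 chromosomes, and were chosen by annotation alone, without regard to tags or fold enrichment.

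RNA immunoprecipitation followed by sequencing (RIP-seq) recovers the RNA that comes down with an antibody. It was done in extracts of MKN-28, an established gastric cancer cell line, with an antibody against PTBP1 or with normal rabbit IgG as the negative control, and no other treatment is given for either library. There was 1 library of each kind, so nothing here could be checked between replicates, and no p-value over peaks is given. Total tags per library are unknown here, the peaks carry no strand, the sources used here do not give the strand setting of the libraries, and the heading of the tag column does not say which library was counted.

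PTBP1, the polypyrimidine tract binding protein, belongs to the hnRNP family and holds stretches of C and U in RNA, through which it affects how transcripts are spliced, kept and translated. Many human protein-coding genes share a promoter region with a noncoding transcript that is read from the opposite strand, either head to head from a common region or antisense across the first exon. A peak without a strand over such a region can be named for either gene, so for these 209 peaks the transcript that gave the tags cannot be told apart from the list alone.

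Of the promoter regions beside these peaks, 3 are shown, those of closely spaced divergent pairs, because the peak had many tags or a high fold and because both starts fit into the window. They are credited to RefSeq on GRCh38.p14, read 5′ to 3′ on the strand of the coding gene, and end at the base before the coding start. Capitals mark the stretch between the start of the noncoding gene and that of the coding gene.
BTG1 with BTG1-DT (listed as LOC101928617), chr12:92145847-92146096, minus strand: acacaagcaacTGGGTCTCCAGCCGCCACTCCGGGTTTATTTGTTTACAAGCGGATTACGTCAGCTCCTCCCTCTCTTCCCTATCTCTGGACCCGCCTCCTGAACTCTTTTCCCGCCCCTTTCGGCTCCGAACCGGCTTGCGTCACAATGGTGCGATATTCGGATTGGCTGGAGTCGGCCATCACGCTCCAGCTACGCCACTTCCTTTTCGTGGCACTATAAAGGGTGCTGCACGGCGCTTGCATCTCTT
FSIP1 with LOC105370941, chr15:39782842-39783091, minus strand: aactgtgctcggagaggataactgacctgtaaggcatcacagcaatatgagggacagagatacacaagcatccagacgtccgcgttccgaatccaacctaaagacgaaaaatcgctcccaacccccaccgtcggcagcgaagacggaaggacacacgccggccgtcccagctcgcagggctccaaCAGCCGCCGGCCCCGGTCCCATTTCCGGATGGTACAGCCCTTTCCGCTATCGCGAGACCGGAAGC
COX10 with COX10-DT (listed as COX10-AS1), chr17:14069254-14069503, plus strand: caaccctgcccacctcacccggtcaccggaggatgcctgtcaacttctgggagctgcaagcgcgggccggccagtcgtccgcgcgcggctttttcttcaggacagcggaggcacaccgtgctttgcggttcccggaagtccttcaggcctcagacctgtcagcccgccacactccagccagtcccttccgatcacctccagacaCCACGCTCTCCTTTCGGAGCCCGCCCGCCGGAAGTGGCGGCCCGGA
In these RefSeq entries the noncoding start lay 239 bases before that of BTG1, an antiproliferative regulator, 65 bases before that of FSIP1 and 46 bases before that of COX10, which makes heme A for cytochrome oxidase. In the transcripts listed with the peaks on hg19, the starts were 187 bases apart at BTG1 and 67 at FSIP1, and at COX10 the transcripts overlapped at their 5′ ends by 57 bases. The pyrimidine motifs TCTTC and CTTTC were searched on both strands of the 250 bases. Each of these 3 windows held CTTTC on the coding strand, BTG1 and COX10 also held TCTTC on that strand, and FSIP1 held TCTTC on the other strand. Of the 138 coding genes of promoter peaks in this set, 115 had a RefSeq promoter. TCTTC occurred on either strand in 46 of these 115 (40.0%, 95% Wilson interval 31.5 to 49.1%) and in 44.2% of all 35116 promoter windows of that length. CTTTC occurred in 54 of 115 (47.0%, 38.1 to 56.0%) and in 48.9% of all windows, so neither motif stood above its level over all promoters. The windows end before the coding start and so are not part of the coding RNA made from it. Nothing about the binding of RNA by PTBP1 is read from these counts.

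For 39 of the 209 peaks the nearest noncoding gene was a microRNA, and the mature sequences are shown for those that the results below turn on. The capitals mark the seed, bases 2 to 8, which pairs with target RNAs, and the sequences are from RefSeq on GRCh38.p14. Of the 34 microRNA symbols, 32 matched the table.
hsa-miR-3197 (MIR3197, with BACE2): gGAGGCGCaggcucggaaaggcg
hsa-miR-6753-5p (MIR6753, with NDUFS8 and TCIRG1): cACCAGGGcagagcagggcuga
hsa-miR-6753-3p (MIR6753): uGGUCUGUcucugcccuggcac
hsa-miR-6889-5p (MIR6889, with CHADL): uCGGGGAGucugggguccggaau
hsa-miR-6889-3p (MIR6889): uCUGUGCCccuacuucccag
hsa-miR-1281 (MIR1281, with EP300, chosen after its values were seen): uCGCCUCCuccucuccc
No 2 of these share a seed. The peak overlapped the microRNA hairpin in 8 of the 39 cases (20.5%, 10.8 to 35.5%), and it overlapped the listed coding transcript in 22 (56.4%, 41.0 to 70.7%). The BACE2 and MIR3197 peak covered 15 of the 74 bases of the hairpin, while the EP300 and MIR1281 peak (26 tags, fold 4.83) covered all 55. The hairpins of MIR4665, MIR4466, MIR7641-2 and MIR4482, named after their values were seen, were also covered in full. Of the bases of miR-1281, 94.1% were C or U. Among the other mature sequences read for overlapped hairpins, that share ran from 16.7% (miR-5703) to 68.2% (miR-4482-3p), and it was 26.1% for miR-3197. In the other 31 peaks the microRNA was named for its distance to the peak and not for an overlap with it.

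The first question was whether both lists gave such a peak the same place relative to its genes. The class was the same on both sides in all 209 peaks, as it was in all 1074 shared positions. Each position had 1 class and was paired with genes of that class only, so nothing is read from this match. The promoter class held 147 of the 209 (70.3%, 63.8 to 76.1%), the upstream class 40 (19.1%, 14.4 to 25.01%), the intron class 17 (8.13%, 5.14 to 12.6%), the exon class 3 and the intergenic class 2. Promoter peaks made up 29.1% (26.2 to 32.2%) of the 865 shared positions with a common symbol, 18.5% (17.6 to 19.4%) of the 7405 positions in the mRNA list alone and 14.9% (13.3 to 16.6%) of the 1775 in the lncRNA list alone. The promoter share of the 209 lay above all 3 intervals. The rule for the 209 required differently named genes of 1 class at the same position, which the other groups did not need. How far this rule sets the class shares was not tested. Exon peaks were 1.44% of the 209 (0.489 to 4.13%), 24.2% of the common-symbol positions, 34.2% of the mRNA list alone and 3.66% of the lncRNA list alone (2.88 to 4.64%), and the last of these intervals overlaps that of the 209. Intervals here and below are 95% Wilson intervals, which cover counting error only.

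**Figure D1:**
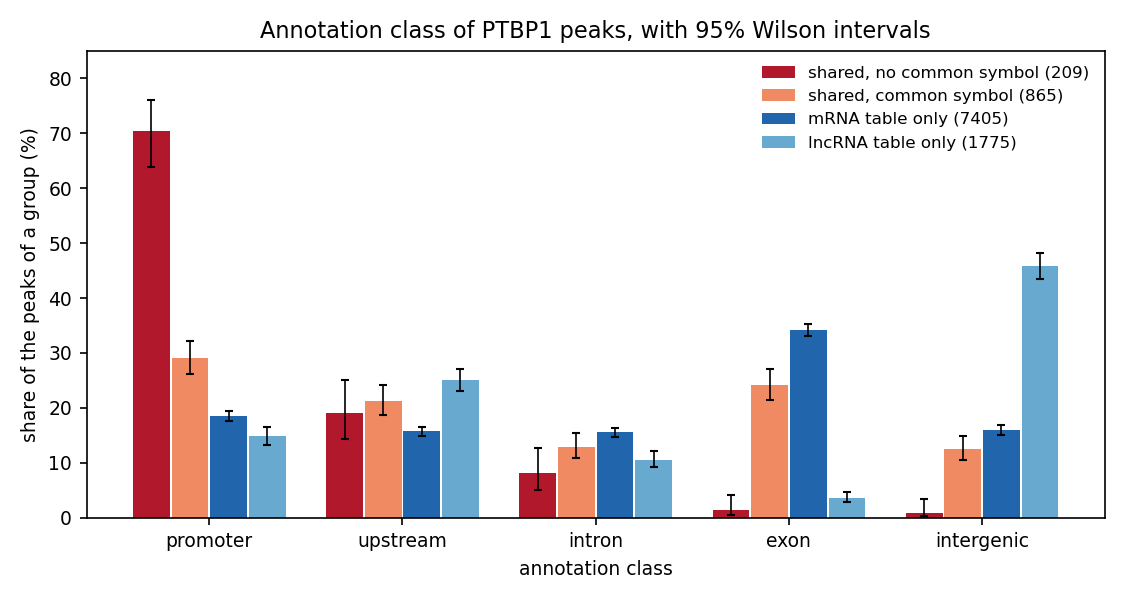
Share of peaks in each annotation class, in percent, for the 209 shared peaks with no common symbol and for the 3 other groups of positions; error bars are 95% Wilson intervals. The promoter bar of the 209 peaks stands at 70.3%, above the 29.1%, 18.5% and 14.9% of the other groups, and their exon bar at 1.44%.

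Each position had 1 class in each list and was paired only with genes of that class. Among positions of the lncRNA list alone, 227 of 1775 (12.8%, 11.3 to 14.4%) shared at least 1 base with a coding transcript listed elsewhere in the mRNA list. The share was 34.9% (30.6 to 39.5%) for the 444 upstream positions. Such positions overlapped a coding gene and lay upstream of a noncoding one. They were listed for the noncoding gene alone, and so were not among the 209. How many of them there are in genes without a listed peak was not tested.

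The fold enrichment of these peaks was like that of other peaks, and their tags were somewhat more numerous. The median fold was 7.18 (95% interval of the median 6.73 to 7.78, quartiles 5.19 and 9.39, range 2.51 to 25.55), against 7.11 for positions with a common symbol, 7.06 for the mRNA list alone and 7.36 for the lncRNA list alone. A fold of at least 10 was reached by 48 of 209 (23.0%, 17.8 to 29.1%), where 24.0% of all positions of the mRNA list and 25.3% of the lncRNA list reached it. The share of peaks with such a fold was thus near the background. The median number of tags was 16 (14 to 21, quartiles 9 and 51), against 13, 13 and 12 in the other groups, and 93 of 209 (44.5%, 37.9 to 51.3%) had at least 20 tags, against 36.6% (35.6 to 37.6%) of the mRNA list. Within the promoter class the difference from the mRNA list alone was small, at 46.3% (38.4 to 54.3%) and 45.1% (42.5 to 47.7%) with at least 20 tags. The median peak length was 610 bases (573 to 709), against 541, 524 and 503.

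High fold and many tags were found in different peaks. The 48 peaks with a fold of at least 10 had a median of 10 tags and at most 68, and 41 of them had fewer than 20. The 26 peaks with at least 100 tags had folds between 2.95 and 8.69, with a median of 4.68. A peak of 6 tags, the fewest listed, rests on little sampling whatever its fold, and 55 of the 209 (26.3%) had fewer than 10. The deposited false discovery rate of the 209 peaks was never below 43.16% and was 100% for 6 of them, so no peak passes a usual limit on it. This was not particular to them, since the lowest rate was 43.06% in the whole mRNA list and 43.07% in the lncRNA list. A rate of 100% was given for 2.87% of the 209, 2.37% of the mRNA list and 2.49% of the lncRNA list.

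**Figure D2:**
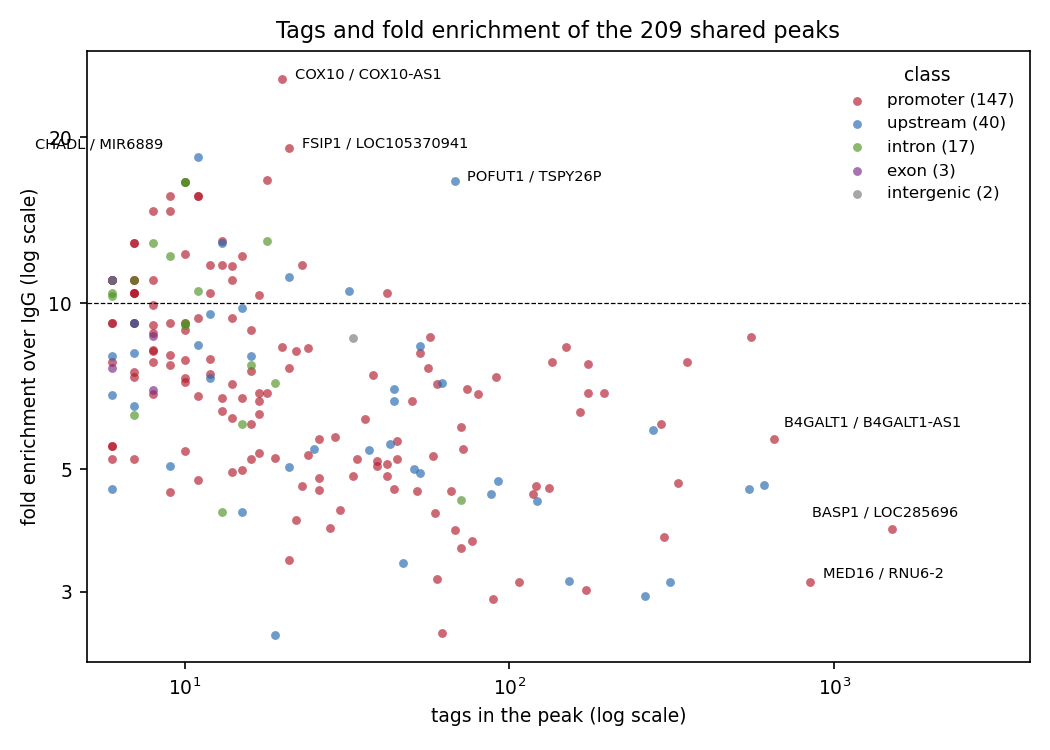
Tags in the peak (x axis, log scale) and fold enrichment over IgG (y axis, log scale) for each of the 209 peaks, coloured by annotation class; the dashed line is a fold of 10. Peaks above the line have at most 68 tags, and the peak with the most tags, BASP1 with LOC285696 at 1502, has a fold of 3.90.

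The peak with the most tags was that of BASP1, a membrane-attached signalling protein, and LOC285696, now named BASP1-AS1. It spanned chr5:17217651-17218110 (hg19) and had 1502 tags and a fold of 3.90, and alone held 11.5% of the 13073 tags of the 209 peaks. Its midpoint lay 211 bases downstream of the BASP1 start and 349 bases before that of LOC285696, with the starts 138 bases apart, and the peak overlapped the BASP1 transcript only. The ARF4 peak (chr3:57582598-57583205, 331 tags, fold 4.72) had the same form, 314 bases into this small GTPase of the Golgi and 614 before ARF4-AS1. The BTG1 peak (chr12:92538902-92539663, 299 tags, fold 3.78) lay 391 bases into BTG1 and 578 before LOC101928617. In all 3 the peak lay on the coding transcript, from about its first bases onward, and did not reach the noncoding one.

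Other peaks with many tags reached both transcripts. The B4GALT1 peak (chr9:33166496-33168126, 652 tags, fold 5.68) covered the start of this galactosyltransferase and that of B4GALT1-AS1, whose transcripts overlap at their 5′ ends with starts 411 bases apart. The AZIN1 peak, at the gene for an inhibitor of antizyme, had 556 tags and a fold of 8.69, the highest fold among the peaks with at least 100 tags, and the starts of AZIN1 and AZIN1-AS1 lay 70 bases apart. TRAM1, of the protein translocation site of the endoplasmic reticulum, shared a peak of 353 tags and a fold of 7.83 with LACTB2-AS1. TM9SF2 with LINC00449 (175 tags, fold 7.78), the tetraspanin gene CD81 with CD81-AS1 (174 tags, fold 6.89) and the heme-binding protein gene HEBP1 with the pseudogene HTR7P1 (165 tags, fold 6.36) also had peaks that covered both starts. In total 27 of the 147 promoter peaks (18.4%, 12.9 to 25.4%) covered both starts, with a median of 34 tags and a median length of 864 bases, and 64 (43.5%, 35.8 to 51.6%) covered neither.

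**Figure D3:**
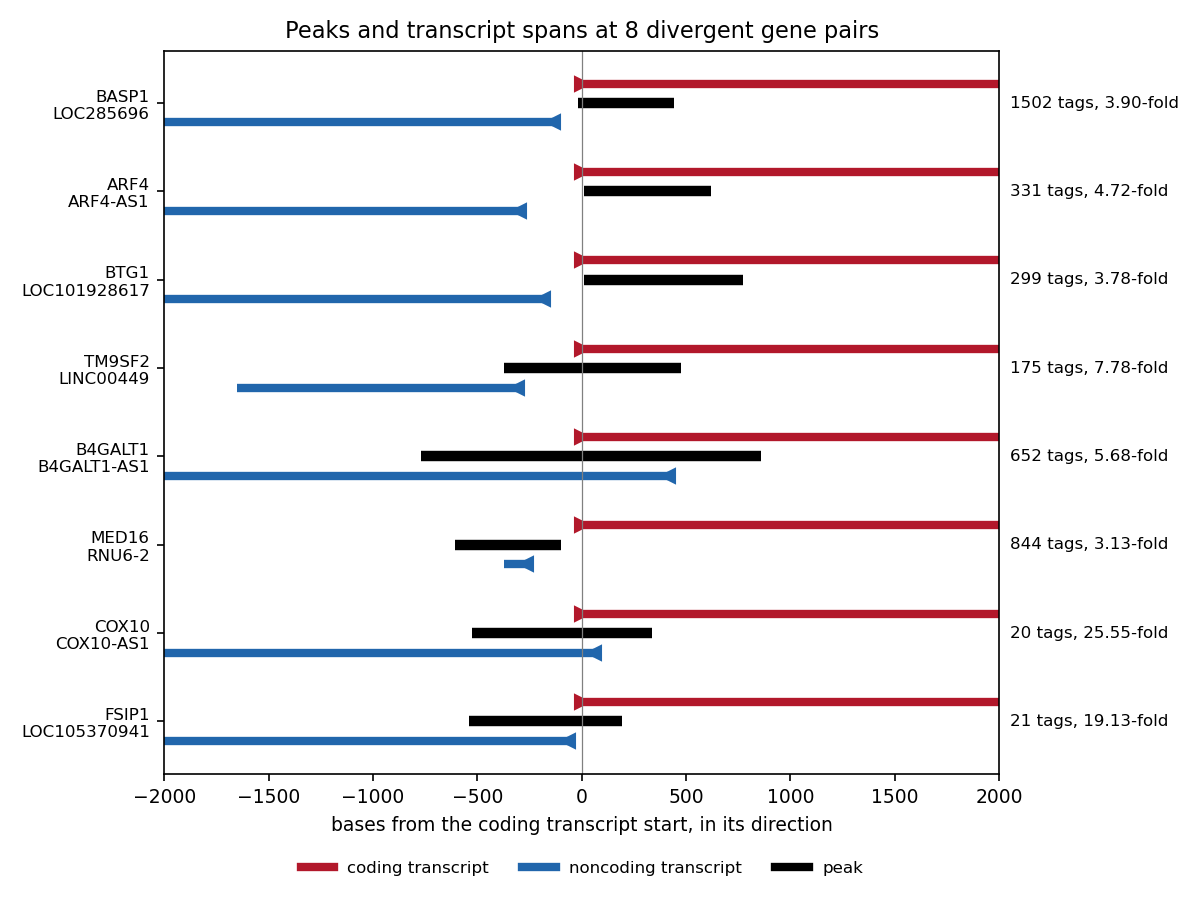
Peak (black), coding transcript (red) and noncoding transcript (blue) at 8 divergent pairs, in bases from the coding start along its strand; arrowheads mark starts and their direction, and spans are cut at 2000 bases. The peaks of BASP1, ARF4 and BTG1 lie on the coding transcript, that of MED16 lies over RNU6-2, and those of TM9SF2, B4GALT1, COX10 and FSIP1 cover both starts.

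The promoter peak with the second most tags lay on the noncoding gene instead, and was listed for MED16, a Mediator subunit, with RNU6-2, a U6 spliceosomal RNA. That peak (chr19:893318-893827, 844 tags, fold 3.13) lay 354 bases before the MED16 start and overlapped RNU6-2 only. RNU6-2 was also named for a peak at TMEM259 (chr19:1020367-1021154, 196 tags, fold 6.87) that did not overlap it. U6 RNA has many near-identical copies in the genome, so tags at the peak over RNU6-2 cannot be assigned to 1 copy, and the placement of that peak is uncertain. The same holds for the peak of WASH1 with 4 listed MIR1302 copies (17 tags, fold 10.34) and for NBPF10 with NBPF25P, which are described below.

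The highest folds belonged to peaks with few tags. COX10 with COX10-AS1 (chr17:13972192-13973055) had a fold of 25.55 on 20 tags, with its midpoint 95 bases before the COX10 start and 152 into COX10-AS1. FSIP1, of the sperm fibrous sheath, with LOC105370941 (chr15:40074848-40075580) had a fold of 19.13 on 21 tags. In both the peak covered the 2 starts, and its midpoint lay on the noncoding side, and the promoters of both pairs are among the sequences shown above. CHADL with MIR6889 had a fold of 18.40 on 11 tags, in a peak upstream of both. The chromatin protein gene SMCHD1 with the pseudogene CBX3P2 had 16.70 on 18 tags, and POFUT1, which adds O-fucose to Notch, with the pseudogene TSPY26P had 16.68 on 68 tags. NSMCE1 with FLJ21408 (16.60), ZAK with MLK7-AS1 (16.56) and ADARB2 with ADARB2-AS1 (16.56) had 10 tags each, and DUSP8 with KRTAP5-AS1 and KAT6A with LOC105379393 had a fold of 15.66 on 11 tags each, a fold shared by ADH5 with LOC100507053 on 9 tags. Of the 10 peaks with the highest fold and, at ties, the smaller p, only that of POFUT1 had more than 21 tags.

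The question of which neighbour a peak belonged to was followed through strand and order. The pair was head to head without overlap in 108 of the 209 peaks (51.7%, 44.9 to 58.4%), overlapping antisense in 59 (28.2%, 22.6 to 34.7%), overlapping on the same strand in 25 (12.0%, 8.23 to 17.1%) and in tandem in 17 (8.13%, 5.14 to 12.6%). No pair was tail to tail without overlap. Such a pair has no position before both starts and none inside both transcripts, so the classes largely fix this. In the promoter class 88 pairs were head to head and 41 overlapped at their 5′ ends, so that 129 of 147 (87.8%, 81.5 to 92.1%) had divergent starts. Those starts lay a median of 277 bases apart (quartiles 108 and 522, highest 2055), with 30 pairs within 100 bases and 93 within 500. A promoter class in both lists needs both starts near the same peak, which limits this spacing. How far the rule sets the divergent share was not tested.

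By current RefSeq names, the noncoding partner was the antisense or divergent transcript named after the coding gene itself in 84 of 209 peaks (40.2%, 33.8 to 47.0%). This was so for 35 of the 58 peaks whose partner carried a LOC number in the list, such as LOC285696 of BASP1 and LOC101928617 of BTG1. By the names in the list, the partner was antisense by name in 73 peaks, a microRNA in 39, a pseudogene in 13, a LINC gene in 5, a snoRNA in 3, a host gene in 1 and of another kind in 17. The host gene was SNHG1, which carries several snoRNAs in its introns and was listed with SLC3A2, the heavy chain of amino acid transporters, in a peak of 121 tags and a fold of 4.67. That peak overlapped SLC3A2 and not SNHG1. In 1 case, HPS3 with CP (8 tags, fold 6.96), the gene on the lncRNA side was ceruloplasmin, a protein-coding gene by its RefSeq class.

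Of the 147 promoter peaks, 73 (49.7%, 41.7 to 57.6%) lay past the coding start and short of the noncoding one. The peak midpoint was downstream of the coding start in 102 (69.4%, 61.5 to 76.3%) and downstream of the noncoding start in 65 (44.2%, 36.4 to 52.3%). Promoter peaks of the mRNA list alone lay downstream of their coding start in 75.3% (73.0 to 77.6%), and those of the lncRNA list alone lay downstream of their noncoding start in 65.9% (60.0 to 71.4%). For the noncoding start the interval of the shared peaks lay below that of peaks in the lncRNA list alone. The 2 intervals for the coding start overlap. In 129 of the 147 pairs the starts were divergent, so a midpoint past the coding start often lay short of the noncoding one. The shares for the 2 starts are therefore not separate results. The median distance was 211 bases downstream of the coding start (148 to 305) and 98 bases upstream of the noncoding start (321 upstream to 17 downstream).

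**Figure D4:**
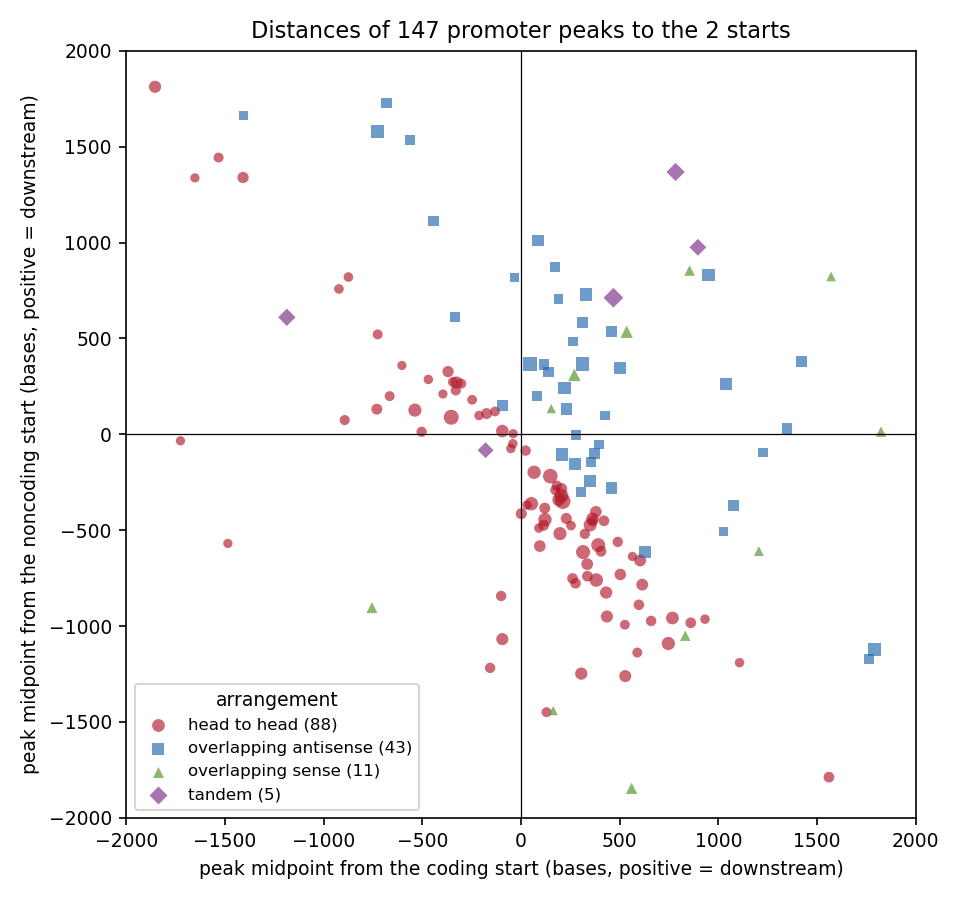
Distance of the peak midpoint from the coding start (x axis) and from the noncoding start (y axis), in bases, for the 147 promoter peaks; colour and shape give the arrangement of the pair and a larger mark has more tags. Head to head pairs run along a falling line, and most of them lie in the lower right, downstream of the coding start and upstream of the noncoding start.

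With divergent starts a midpoint can be placed on 1 gene's side, after both starts where the transcripts overlap, or before both. Of the 129 such peaks, 68 (52.7%, 44.1 to 61.1%) lay on the coding side, 35 (27.1%, 20.2 to 35.4%) on the noncoding side, 19 after both starts and 7 before both. Peaks on the coding side had a median of 21.5 tags and a median fold of 6.80, and those on the noncoding side a median of 11 tags and a fold of 7.83. At least 20 tags were found in 36 of the 68 and in 11 of the 35, and at least 100 tags in 13 and 2. The 2 on the noncoding side were those of MED16 with RNU6-2, named above, and of RNF139, which was named after its values were seen, with RNF139-AS1 (135 tags, fold 7.83). The ranges of the 2 groups overlapped throughout, from 6 to 1502 tags on the coding side and from 6 to 844 on the noncoding side. In the mRNA list alone, promoter peaks downstream of the start had a median of 18 tags and those upstream 13. The medians were 14 and 14 for common-symbol promoter peaks about the coding start, and 16 and 15 in the lncRNA list alone. Among the 209 peaks the promoter ones had 21.5 downstream and 11 upstream of the coding start.

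**Figure D5:**
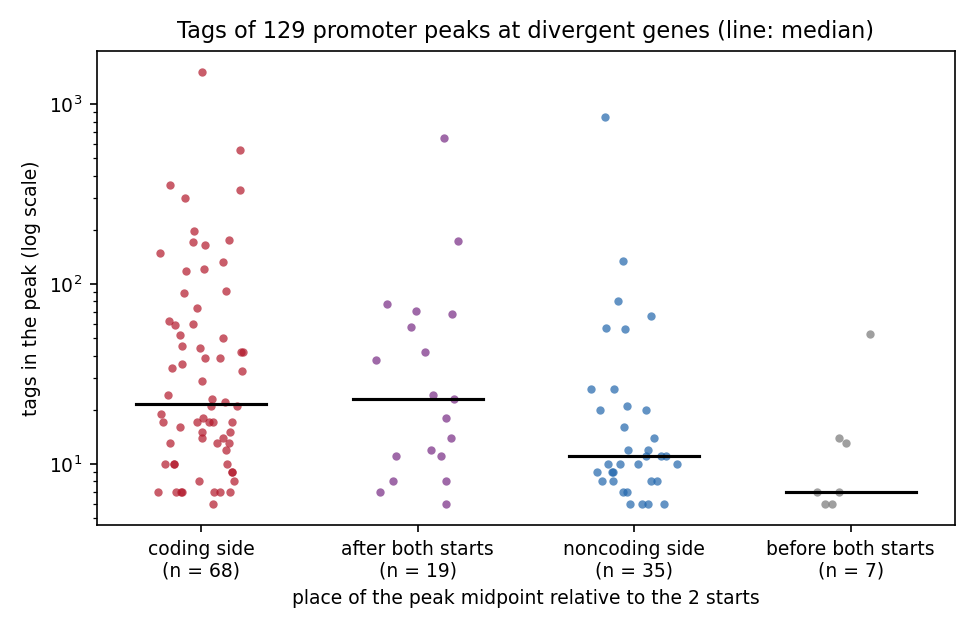
Tags in each of the 129 promoter peaks at divergent pairs (y axis, log scale), by the place of the peak midpoint relative to the coding and noncoding starts; black lines are medians and horizontal scatter carries no value. The medians are 21.5 tags on the coding side, 23 after both starts, 11 on the noncoding side and 7 before both, and the groups overlap.

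Overlap with the listed transcripts describes much the same placement of the same peaks, so it is not a separate result. The peak shared at least 1 base with both transcripts in 81 cases (38.8%, 32.4 to 45.5%), with the coding transcript only in 58 (27.8%, 22.1 to 34.2%), with the noncoding only in 26 (12.4%, 8.63 to 17.6%) and with neither in 44 (21.1%, 16.1 to 27.1%). Peaks on the coding transcript only had a median of 18.5 tags, and those on the noncoding transcript only had 10. The coding start was the nearer one in 113 peaks and the noncoding start in 88, with 8 ties. When at least 50% of the peak had to lie in the transcript, 59.8% overlapped the coding transcript, 35.9% the noncoding one and 19.6% both.

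All 40 upstream peaks overlapped neither of the transcripts listed with them, as an upstream class in both lists implies. Their median number of tags was 28.5 (15 to 51), against 17 for the promoter peaks (14 to 22). Their midpoints lay 2042 to 19750 bases before the coding start. Upstream positions with a common symbol had a median of 14 tags (12 to 16), and those of the mRNA list alone 14 (13 to 16). In the lncRNA list alone the median was 12 (11 to 13). The interval of the 40 peaks lay above this last one and overlaps the others given here.

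Some of these upstream peaks overlapped another transcript that was not listed at that position. Of the 44 peaks outside both named transcripts, 11 (10 upstream and 1 promoter) shared at least 1 base with a transcript that the lists held for another peak, in 7 genes. For 10 of them, in 6 genes, that transcript belonged to a gene not named there, and at HIPK1 to the named gene itself. These genes, and the pairs of RPLP0, KIF1C, RNF166 and HIPK1, were named after their values were seen. The 548-tag peak named for GCN1, a sensor of stalled ribosomes, and PXN-AS1 (chr12:120635043-120637688, fold 4.61) overlapped RPLP0, which encodes a protein of the large ribosomal subunit. RPLP0 in turn shared a promoter peak of 89 tags and a fold of 2.91 with PXN-AS1. The 610-tag peak named for GLTSCR2, a ribosome biogenesis factor now called NOP53, and SNORD23 (chr19:48244124-48246419, fold 4.68) overlapped EHD2, a membrane-remodelling ATPase. The POFUT1 and TSPY26P peak of 68 tags overlapped PLAGL2, a zinc finger transcription factor. Peaks named for SIPA1 and MIR4690 overlapped PCNX3, that of KIF1C and MIR6865 overlapped CAMTA2, and that of RNF166 overlapped the ion channel gene PIEZO1. At HIPK1 the peak of 43 tags listed as upstream overlapped a longer HIPK1 transcript.

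The order of genes in RefSeq (GRCh38.p14) was also read between these partners. At least 1 protein-coding gene lay wholly between the partners in 11 of the 20 upstream peaks with head to head pairs. RPLP0 lay between GCN1 and PXN-AS1, PLAGL2 between POFUT1 and TSPY26P, and TAP2, also named after the values were seen, a subunit of the peptide transporter for antigen presentation, between HLA-DOB and PSMB8-AS1. HLA-DOB, a chain of an MHC class II modulator, and PSMB8-AS1 shared 4 upstream peaks of 44, 16, 12 and 6 tags with folds of 6.64, 8.03, 9.57 and 8.03. Whether the tags came from the gene between the partners cannot be told apart from these peaks.

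Pairs with several peaks were few, since 20 of 181 had more than 1. TM4SF19 and its readthrough transcript TM4SF19-TCTEX1D2 had 5 peaks of 92, 53, 37, 33 and 15 tags, all 10574 to 23994 bases before a start that both transcripts share. The distances in the 2 lists are equal there, since both names have the same listed start. Readthrough partners, matched by current or older symbols of the coding gene, made up 8 of the 209 peaks. The promoter ones were P2RX5 with P2RX5-TAX1BP3 (72 tags, fold 5.45, 535 bases after the common start) and PRELID3B with SLMO2-ATP5E (16 tags, fold 7.54, 854 bases after the common start), the latter named after its values were seen. NBPF10 and the pseudogene NBPF25P had 4 intron peaks of 19, 15, 7 and 6 tags. They belong to a family of near-identical copies, and 1 of these peaks was listed 933198 bases from the NBPF10 start and 399364 from that of NBPF25P, the largest difference of distances of all. SIPA1, which switches off Rap GTPases, and MIR4690 had 3 peaks of 60, 51 and 6 tags, none of which overlapped either.

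Some tandem peaks with a microRNA as partner had many tags. The peak named for NDUFS8, a subunit of respiratory complex I, for TCIRG1, a proton pump subunit, and for MIR6753 (chr11:67795181-67796683) had 312 tags and a fold of 3.12, at 2151 bases before the nearer coding start and 16328 before the microRNA. The BACE2 peak (chr21:42539542-42540848) had 293 tags and a fold of 6.04 and lay 468 bases into this aspartyl protease gene and 712 past the start of MIR3197. The 17 tandem peaks had a median of 45 tags (21 to 60), against 17.5 (14 to 26) for the 108 head to head ones, and a median fold of 5.44. These intervals for tags overlap. The upstream class held 12 of the tandem peaks and 20 of the head to head ones. Within that class the medians were 34.5 tags (11 to 53) and 26.5 tags (13 to 68).

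The intron class held 17 of the 209 peaks. Every one of them overlapped both listed transcripts, as an intron class in both lists implies, and 13 lay in pairs on opposite strands. Their median fold was 10.33 (7.18 to 12.18) on a median of 10 tags, and 9 of 17 (52.9%, 31.0 to 73.8%) reached a fold of 10, against 21.8% (15.9 to 29.1%) of the promoter peaks. Intron positions outside the 209 had a median fold of 8.29 (7.36 to 9.12) where the symbol was common and 8.25 (7.86 to 8.70) in the mRNA list alone. In the lncRNA list alone it was 7.36 (6.71 to 7.69), equal to the median of that group over all classes. A fold of 10 was reached by 30.4% (22.6 to 39.4%), 33.7% (31.0 to 36.5%) and 26.1% (20.3 to 32.8%) of these groups in turn. All of these intervals overlap those of the 17 peaks. The intron peak with the most tags was that of PRC1, which bundles microtubules in cell division, and PRC1-AS1 (chr15:91517745-91518323, 71 tags, fold 4.41). That of SVIL, an actin-binding protein, and SVIL-AS1 had 18 tags and a fold of 12.98 and lay 265312 bases into the gene.

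The members of the set were also set beside 5 gene lists. None of the 20 splicing and hnRNP genes, the 20 silencing and decay genes or the 7 transcripts followed in the study that had a peak was named for one of the 209, where 180 of all 5186 coding symbols (3.47%) were. Of 14 TGFβ and EMT genes with a peak, 1 was named, the activin receptor ACVR2B with ACVR2B-AS1 (8 tags, fold 7.84, 424 bases after the ACVR2B start and 98 after that of ACVR2B-AS1). Of 133 zinc finger symbols, 2 were named, ZNF451 with LOC101927211 (8 tags, fold 12.88) and ZNF337-AS1 with NANP (7 tags, fold 12.88).

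Peaks elsewhere in the same genes were counted for both partners. Of the 180 coding genes, 50 (27.8%, 21.8 to 34.7%) had another peak of exon class, while 2 of the 185 noncoding genes (1.08%, 0.297 to 3.86%) did. Exon peaks were 32.4% of all positions in the mRNA list and 9.72% of those in the lncRNA list, which are shares of positions and not of genes. Any other peak was named for 90 coding (50%, 42.8 to 57.2%) and 65 noncoding genes (35.1%, 28.6 to 42.3%). The same shares over all genes of the 2 lists were not counted, so no difference between the partners is read from these.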

How the data were processed

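RIP-seq of MKN-28 cells gave 1 PTBP1 and 1 IgG library. The submitters' processing notes name cutadapt (1.9.3), Bowtie2 (2.2.4) and hg19. The caller of the peaks is not given in the sources used. The authors deposited tables of peaks of PTBP1 over IgG, 1 for mRNA and 1 for lncRNA, each row pairing a peak with a RefSeq transcript. The deposited tag counts are whole tags in the peak. The authors gave fold enrichment as a ratio to the IgG background, each peak's p-value as a score (10 times the negative log10) and the false discovery rate as a percent. Promoter tables were checked to repeat the promoter rows of the full tables, with 0 differing rows. No tag, fold, score or rate differed between the 2 tables for a shared position.

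Peaks were counted once per position. The gene of a peak was the one with the nearest listed start, distances run from that start to the peak midpoint along the transcript, and overlap needed 1 base in common with the span of the listed transcript. By accession, 356 of 358 coding and 232 of 234 noncoding transcripts matched RefSeq entries of GRCh38.p14, from which names, classes, gene order and sequences were taken. Shares have 95% Wilson intervals and medians have 95% order-statistic intervals, which cover counting error only. No test across peaks was made, since positions are not replicates. The peaks and gene lists were chosen with earlier results of these data known. Named genes were the 10 peaks with the most tags and the 10 with the highest fold (ties broken by the smaller p and then by symbol), the peaks with the most tags in each class, kind of partner and arrangement, the positions with the most genes, the pairs with the most peaks, the largest differences of distance and members of the gene lists; other names are marked as chosen after their values were seen. Not every peak chosen this way is reported. Alternatives were limits on fold, tags and p score, partners left out, other distances and overlaps, and merged peaks. hg19 sequence under the peaks was not analysed here. The selection of peaks, the arrangement of pairs and the overlap with the noncoding transcript were tested on simulated data. The counting of classes and the overlap with the coding transcript were not tested in this way. The tools were matplotlib (3.10.9), scipy (1.17.1), numpy (2.4.6) and pandas (2.3.3) under Python (3.11.15).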

Additional observations from a re-analysis of the deposited data

How the results depend on the processing

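Of 150 values recomputed under 12 settings, 121 moved by less than their interval or, for counts, by less than 1.5 times, and 29 moved further; the cause was not tested except where the setting's own construction gives it. Requiring a fold of at least 10 left 48 peaks, with 58.3% overlapping the noncoding transcript, 14.6% overlapping neither, 54.2% nearer to the noncoding start, 39.6% overlapping antisense, 2.08% in tandem, a median fold of 11.74, 10 tags and a length of 510.5 bases. Requiring at least 20 tags left 93 peaks, with 43.01% overlapping the noncoding transcript, 35.5% nearer to the noncoding start, 21.5% overlapping antisense, 13.98% in tandem, a median fold of 5.28, 57 tags, a length of 916 bases and 7.53% with a fold of at least 10. A p score of at least 50 left 94 peaks, with a median fold of 8.165, 23.5 tags, a length of 713.5 bases and 35.1% with a fold of at least 10. Without microRNA partners 57.9% overlapped the noncoding transcript and 2.92% were in tandem. With at least 50% of the peak required inside the transcript, 59.8% overlapped the coding transcript, 35.9% the noncoding one and 19.6% both. With both starts required within 500 bases, 29.2% were of promoter class in both lists. No paired analysis was possible because there is 1 library per group and the results come from no test.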
